A study of Homo sapiens with 6 samples.

Results

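The genes described here are those of protein folding and quality control in the endoplasmic reticulum (ER): the sensors of the unfolded protein response, the chaperones and disulfide isomerases of the ER lumen, and the machinery of ER-associated degradation. They were chosen by symbol from a list of 41 names, of which 40 had a row among the 21857 genes of the deposited tables. The names were chosen with earlier results of these data known. The listed name without a row, VIMP, is an older symbol of SELENOS, which is counted once. All 40 passed the filter on low counts.

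The samples were 6 bulk RNA sequencing libraries of MV4;11, a human acute myeloid leukemia cell line labelled as FLT3-ITD MLL-AF4, that is, with an internal tandem duplication in the FLT3 receptor gene and a fusion of MLL to AF4. In 3 libraries, the cells had received 10 µg/ml flavokawain A (FKA), a chalcone of the kava plant, for 48 h. The other 3 libraries were untreated controls of the same line, and what vehicle they received, if any, is not given in the labels. Each of batches 1, 2 and 3 held 1 control and 1 FKA library, and the labels do not say that these were separate cultures, so the p-values measure the spread between these libraries, which may be technical.

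Secretory and membrane proteins fold in the ER with the help of chaperones, glycan-binding lectins and disulfide isomerases. When unfolded proteins build up, the membrane sensors IRE1 (gene ERN1), PERK and ATF6 start the unfolded protein response, in which IRE1 splices the mRNA of XBP1 into the form that encodes an active transcription factor and ATF6 is cut in the Golgi to release another. Both factors raise chaperone and degradation genes, and proteins that fail to fold are moved back to the cytosol through the SEL1L-HRD1 complex and degraded by the proteasome. Counts per gene do not separate spliced from unspliced XBP1 or cut from uncut ATF6, so the values below are total mRNA levels.

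Total counts ranged from 33759185 to 36362421 in the controls and from 29971171 to 33183376 with FKA. Levels are given as CPM, read counts relative to the library total after scaling by the trimmed mean of M values (TMM), and a gene was called changed where edgeR's quasi-likelihood test with Benjamini-Hochberg adjustment over all 13531 tested genes gave an adjusted p below 0.05. In all, 59.8% of the tested genes were called, 29.3% higher and 30.5% lower with FKA, and the CPM of the control and FKA libraries did not overlap for 67.3% of them. These are bulk samples, in which fewer cells of a kind and less RNA per cell cannot be told apart. Summed over the 13 of 14 myeloid line markers with a row, the FPKM was 777 to 792 in the controls and 770 to 805 with FKA. CD34 had no row. That level sum hides changes in both directions: 4 of the 13 fell, among them MPO (−5.36) and MYB (−1.06), and 3 rose, among them CSF3R (1.53) and ITGAM (1.51), all as log2 fold changes. The 12 fibroblast markers summed to 1.74 to 5.24 FPKM in the controls, and to 1.1, 10 and 9.65 in FKA libraries 1, 2 and 3. The 5 of 6 epithelial markers with a row summed to 11.1 to 12.6 FPKM in the controls and 8.3 to 12.4 with FKA. For the 4 endothelial markers the sums were 4.21 to 8.74 and 4.05 to 5.86 FPKM. The 4 of 7 T and NK cell markers with a row summed to 22.2 to 26.6 against 10.9 to 11.3, nearly all from NKG7. The part of these in the results was not tested. Of 9 markers of plasma and B cells, a type rich in ER, 6 had a row. Their sum stayed at or below 0.671 FPKM in every library. MS4A1, IGKC and IGHM had no row, so their levels are unknown.

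With FKA, 16 of the 40 genes were lower (40%), 6 were higher (15%) and 18 were not called. The called share was 55%, against 59.8% of all tested genes. The lower share stood above the 30.5% of all genes and the higher share below their 29.3%, with no test of either difference. The genes that fell most were CLGN, DERL3, CALR, HERPUD1, XBP1 and PDIA5, and those that rose most were OS9, ERO1B, SYVN1 and ATF6B. For 26 genes (65%, against 67.3% of all genes) the control and FKA libraries did not overlap. These were all 22 called genes and, among the uncalled, ATF6, HSPA5, SDF2L1 and CRELD2. The median log2 fold change was −0.117, against 0.0109 over all tested genes. With library totals in place of TMM, the median of all genes rose by 0.157, that of the 40 genes became 0.0436, and the calls were 10 higher and 14 lower. Without FKA libraries 2 and 3, the pair with the high fibroblast marker sums, 4 were higher and 12 lower. That fit sets 1 FKA library, assumed to vary like the controls, against 3 controls, and its calls over all genes fell too, to 2020 higher and 2599 lower, so the lower counts of calls say nothing about the fibroblast markers.

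**Figure D1:**
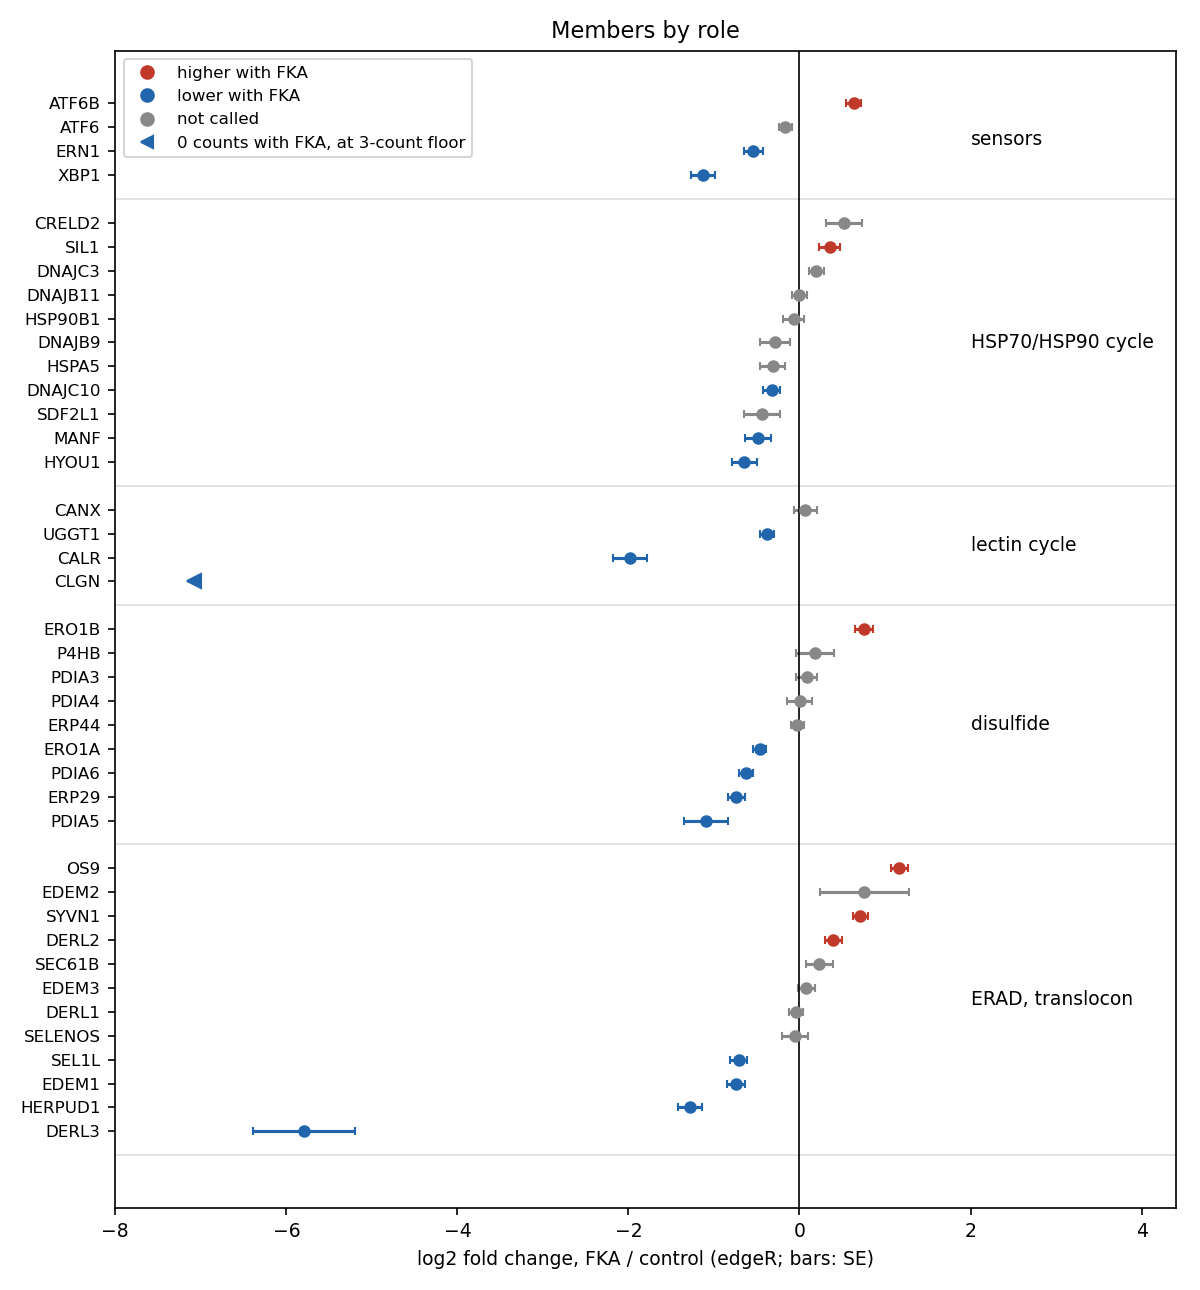
Log2 fold change of each of the 40 genes (FKA over control, x axis), grouped by role, with bars for the standard error of the fit. Colour marks the call, and CLGN, with 0 counts with FKA, is drawn against a floor of 3 counts over the FKA group, so that the points run from −7.08 for CLGN to 1.17 for OS9.

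Of the sensors and their transcription factors, XBP1 and ERN1 fell, ATF6B rose and ATF6 was not called. XBP1, the transcription factor activated by IRE1 splicing, stood at 541.5, 546.9 and 540.9 CPM in controls 1, 2 and 3 and at 308.6, 216.4 and 221.5 CPM in FKA libraries 1, 2 and 3. The controls differed from each other by a few CPM only, and every FKA library was below all of them, library 1 by the least. Its mean fell from 543 ± 3.33 (SD, n = 3) to 249 ± 51.8 CPM, a log2 fold change of −1.13 (SE 0.141, edgeR adjusted p = 0.000182). Within batches the log2 difference was −0.811, −1.34 and −1.29. ERN1, which encodes the IRE1 sensor kinase and endonuclease, read 33.4, 34.42 and 32.07 CPM in the controls and 23.14, 20.54 and 25.12 CPM with FKA. The groups were apart, and ERN1 changed by −0.54 (log2, SE 0.111, edgeR adjusted p = 0.00277). The call was lost on log2(FPKM + 0.1) with limma, where the adjusted p was 0.0509.

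ATF6 and ATF6B encode a pair of related membrane-bound transcription factors that are released by proteolysis. ATF6 read 119.9, 124.7 and 126.5 CPM in the controls and 116.7, 106.4 and 108.2 CPM with FKA. All FKA libraries were below all controls, by a margin of a few CPM between the nearest pair, and the log2 fold change of −0.16 (SE 0.0796, edgeR adjusted p = 0.103) did not pass. ATF6B read 129.7, 110.8 and 121.5 CPM in the controls and 186.4, 195.2 and 180.3 CPM with FKA, so that every FKA library was higher. Its log2 fold change was 0.63 (SE 0.0899, edgeR adjusted p = 0.000363). Exons of ATF6B overlap those of TNXB on the same strand. TNXB had 59 to 96 counts in the controls and 344 to 457 with FKA, beside 3964 to 6267 counts of ATF6B.

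The promoter window of XBP1 that holds an ER stress response element (ERSE) is shown because XBP1 is both a factor of the response and among the genes that fell most. An ERSE is a CCAAT block and a CCACG block 9 bases apart, bound by NF-Y and by ATF6 or XBP1 in genes of the response. The window runs from 250 bases before to 50 bases after a RefSeq start site (GRCh38.p14, chr22:28800520-28800819, minus strand) and is written 5′ to 3′ along the gene, with the ERSE blocks in capitals.
XBP1: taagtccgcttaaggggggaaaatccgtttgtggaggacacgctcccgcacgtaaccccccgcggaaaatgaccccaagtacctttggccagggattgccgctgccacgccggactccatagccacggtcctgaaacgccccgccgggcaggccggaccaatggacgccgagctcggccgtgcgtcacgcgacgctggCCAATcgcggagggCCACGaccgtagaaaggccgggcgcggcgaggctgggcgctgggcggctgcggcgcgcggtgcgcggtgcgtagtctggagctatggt

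Of the 11 chaperones and cofactors of the HSP70 and HSP90 cycle in the ER lumen, HYOU1, DNAJC10 and MANF fell, SIL1 rose, and 7 were not called. The median log2 fold change was −0.285. HSPA5, the ER HSP70 known as BiP and the chaperone that holds the sensors inactive, read 357.6, 278.1 and 269.1 CPM in the controls and 258.9, 202.1 and 268.3 CPM with FKA. Control 1 was the highest and FKA library 2 the lowest, and the groups were apart by less than 1 CPM between control 3 and FKA library 3. The log2 fold change of −0.31 (SE 0.145, edgeR adjusted p = 0.0923) did not pass, and within batches it was −0.466, −0.461 and −0.00438. With no filter on low counts, HSPA5 passed at an adjusted p of 0.0404 (edgeR).

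The promoter window of HSPA5 is shown as that of the best known target of the response (RefSeq, GRCh38.p14, chr9:125241294-125241593, minus strand). Its ERSE, in capitals, lies 66 bases before the start site.
HSPA5: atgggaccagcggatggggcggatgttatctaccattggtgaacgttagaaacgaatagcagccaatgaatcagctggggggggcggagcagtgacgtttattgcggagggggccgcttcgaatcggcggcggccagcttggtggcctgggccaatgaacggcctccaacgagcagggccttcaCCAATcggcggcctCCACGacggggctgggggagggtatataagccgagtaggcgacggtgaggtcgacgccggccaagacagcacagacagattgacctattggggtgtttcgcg

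HYOU1, the large HSP70-related protein that exchanges nucleotide on BiP, was the called chaperone of this cycle with the largest change. It read 145.6, 111.3 and 115.2 CPM in the controls and 80.26, 65.92 and 91.92 CPM with FKA. Control 1 was again the highest, and no FKA library reached a control. The log2 fold change was −0.64 (SE 0.144, edgeR adjusted p = 0.00432).

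Changes of the other called genes of this cycle were smaller. DNAJC10, a J-protein with thioredoxin domains that reduces disulfides of degradation substrates, changed by −0.33 (edgeR adjusted p = 0.0179), from 162.3 to 189.3 CPM in the controls to 125.9 to 144.6 CPM with FKA. MANF, a secreted ER cofactor of BiP, changed by −0.48 (adjusted p = 0.021), and SIL1, the other nucleotide exchange factor of BiP, by 0.35 (adjusted p = 0.0356). None of the 3 calls held throughout. DNAJC10 was not called without FKA library 2 (edgeR adjusted p = 0.0699), with library totals (0.147) or in the 3 limma fits on FPKM (0.186 to 0.21). MANF was not called without control 2 (edgeR adjusted p = 0.0556), without FKA library 2 (0.0717) or with library totals (0.0915). SIL1 was not called without control 1, control 3, FKA library 1, FKA library 2 or FKA library 3 (edgeR adjusted p = 0.0759, 0.0799, 0.0825, 0.0884 and 0.0706) or with no filter (0.109). Exons of SIL1 overlap those of MATR3 and SNHG4 on the opposite strand. MATR3 had 17211 to 19782 counts in the controls and 12220 to 13888 with FKA, beside 366 to 570 counts of SIL1. SNHG4 had 771 to 1175 counts in the controls and 325 to 659 with FKA. Whether the counting used strand is not given in the sources used here.

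HSP90B1, the ER HSP90 also known as GRP94, had a log2 fold change of −0.07 (edgeR adjusted p = 0.659), with 537.6 to 719.2 CPM in the controls and 543.7 to 641.7 CPM with FKA. DNAJB11, a J-protein that brings substrates to BiP, differed by −0.00 (adjusted p = 0.991), with overlapping groups. DNAJB9, a J-protein that holds BiP on IRE1, differed by −0.28 (adjusted p = 0.193), and SDF2L1, a cofactor of DNAJB11, by −0.44 (adjusted p = 0.0963) at 3.376 to 6.854 CPM. The signs of HSP90B1 and DNAJB11 depended on the scaling. DNAJC3, a J-protein of the lumen that delivers unfolded clients to BiP, differed by 0.20 (edgeR adjusted p = 0.0857). It passed without FKA library 2 (edgeR adjusted p = 0.0444), with upper-quartile factors (0.0246) and with library totals (0.00705). The 3 limma fits on FPKM passed DNAJC3 too (adjusted p = 0.00919 to 0.00987), which makes 6 of 16 alternatives. CRELD2, a protein of the ER lumen that the response induces, differed by 0.52 (edgeR adjusted p = 0.0566). In edgeR it passed without FKA library 2 (adjusted p = 0.0451), with library totals (0.0182), with upper-quartile factors (0.037) and with a filter of 1 CPM (0.0475). DESeq2 (adjusted p = 0.0462) and the 3 limma fits on FPKM (0.0187 to 0.0195) passed CRELD2 too. It was thus called higher in 8 of 16 alternatives. On the opposite strand, exons of CRELD2 overlap those of ALG12, and exons of DNAJB9 those of PNPLA8 and THAP5. ALG12 had 294 to 439 counts in the controls and 308 to 365 with FKA. PNPLA8 had 678 to 843 and 1331 to 1421 counts, and THAP5 720 to 823 and 538 to 585, in the same order.

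Among the 4 lectin chaperones and glycan sensors, CALR, CLGN and UGGT1 fell and CANX was not called, with a median log2 fold change of −1.18. CALR encodes calreticulin, the soluble calcium-binding lectin that retains glycoproteins in the ER until they fold. It read 2296, 1459 and 1696 CPM in the controls and 448.9, 375.2 and 557.8 CPM with FKA. The lowest control was more than double the highest FKA library. The mean was 3.94-fold lower, at 461 ± 91.9 against 1817 ± 432 CPM (SD, n = 3), a log2 fold change of −1.98 (SE 0.2, edgeR adjusted p = 6.19e-05). CANX encodes calnexin, the membrane-bound lectin that binds the same glycans. It stayed at 588.9 to 812.8 CPM in the controls and 664.3 to 780.1 CPM with FKA, with overlapping groups, a log2 fold change of 0.07 and an edgeR adjusted p of 0.67.

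Per transcript length, CALR stood at 8.84, 7.76 and 7.75 times the FPKM of CANX in controls 1, 2 and 3 and at 1.88, 1.77 and 2.24 times with FKA. The ratio was lower in every FKA library than in every control. This pair was chosen after the values were seen, and the ratio has no test. CALR made up 37.4%, 31% and 32.8% of the summed FPKM of the 40 genes in the controls and 12%, 11.7% and 13.9% with FKA. The sum itself was 2440.24 to 2974.65 FPKM in the controls and 1805.52 to 2206.01 FPKM with FKA. Without CALR it was 1684.79 to 1862.58 and 1594.85 to 1898.67 FPKM, and the groups overlapped.

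**Figure D2:**
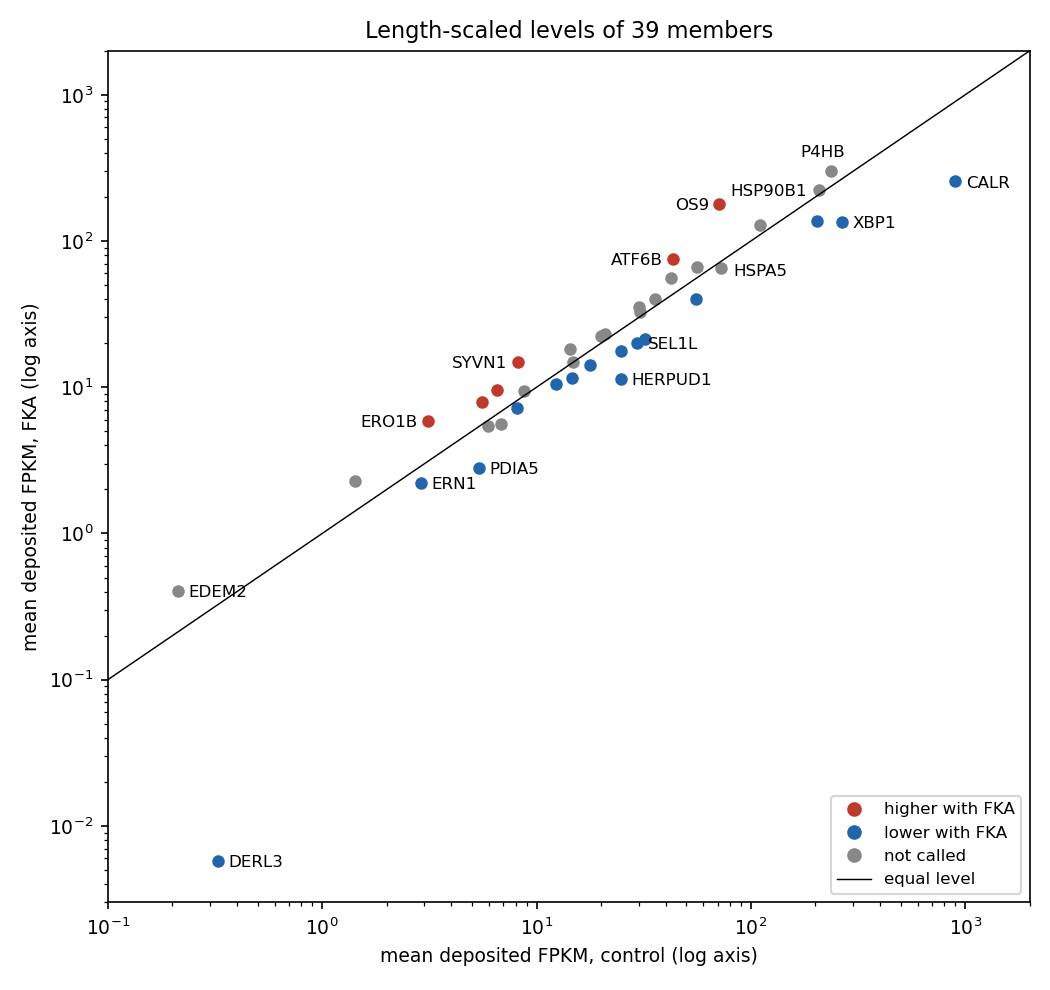
Mean deposited FPKM of 39 genes in the 3 control libraries (x axis) and the 3 FKA libraries (y axis), both on log axes, with the line of equal level. CLGN, listed at 0 in all FKA libraries, is not drawn, and CALR, the gene with the highest control level (900 FPKM), lies below the line.

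The CALR window is shown because CALR had the largest fall among the abundant genes of the set (RefSeq, GRCh38.p14, chr19:12938359-12938658, plus strand). Its ERSE reads on the opposite strand, so the capitals show the blocks as CGTGG and ATTGG, and its CCAAT block is the one nearer the start site.
CALR: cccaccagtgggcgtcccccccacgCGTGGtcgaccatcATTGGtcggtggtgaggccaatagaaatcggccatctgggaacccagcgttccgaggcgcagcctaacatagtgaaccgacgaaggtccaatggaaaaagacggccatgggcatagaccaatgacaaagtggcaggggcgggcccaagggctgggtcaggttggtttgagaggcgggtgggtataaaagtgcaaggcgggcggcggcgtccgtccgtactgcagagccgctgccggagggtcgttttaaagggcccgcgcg

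CLGN encodes calmegin, a calnexin relative best known from the testis. It had 123, 116 and 172 counts in the controls and 0 in each FKA library. Summed over the group, that is 411 counts against 0, and at least 135-fold lower against a floor of 3 counts over the FKA group (edgeR adjusted p = 3.1e-05). The exact 95% interval of the ratio starts lower, at 109, and both cover counting error only. Even in the controls, CLGN was a minor transcript, at 3.241 to 5.117 CPM. UGGT1, the glucosyltransferase that tags misfolded glycoproteins for another round of binding, changed by −0.38 (edgeR adjusted p = 0.00373), from 149.9 to 162.7 CPM to 113.9 to 125.8 CPM, and missed the threshold in limma on log2(FPKM + 0.1) at 0.0517.

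Of the 9 disulfide isomerases and oxidases, PDIA5, PDIA6, ERP29 and ERO1A fell, ERO1B rose and 4 were not called, with a median log2 fold change of −0.0246. PDIA5, a disulfide isomerase known for activating ATF6, read 13.93, 8.522 and 9.163 CPM in the controls and 5.591, 3.501 and 5.697 CPM with FKA. Control 1 stood above the others, and every FKA library was below every control. Its log2 fold change was −1.09 (SE 0.257, edgeR adjusted p = 0.00547), and −0.92 with FKA library 1 alone against the controls. Exons of PDIA5 overlap those of SEC22A on the same strand. SEC22A had 279 to 361 counts in the controls and 349 to 423 with FKA.

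PDIA6, an isomerase that also restrains IRE1 signalling, read 195.1, 178 and 184.7 CPM in the controls and 119.7, 117.8 and 123.3 CPM with FKA. The FKA libraries lay close together, all below the controls, and the log2 fold change was −0.63 (SE 0.0804, edgeR adjusted p = 0.00021). ERP29, a thioredoxin-fold chaperone without a redox-active site, read 358, 339.5 and 405.4 CPM in the controls and 222.8, 213.5 and 224.6 CPM with FKA. Again no FKA library reached a control, and the log2 fold change was −0.74 (SE 0.0963, edgeR adjusted p = 0.000232).

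ERO1A and ERO1B encode the oxidases that re-oxidise the isomerases, and they moved in opposite directions. ERO1B read 29.38, 26.46 and 25.29 CPM in the controls and 47.59, 42.95 and 46.21 CPM with FKA, a log2 fold change of 0.75 (SE 0.102, edgeR adjusted p = 0.000277). ERO1A changed by −0.46 (edgeR adjusted p = 0.000971), from 100.2 to 103.7 CPM to 70.39 to 77.16 CPM, and by −0.41 with FKA library 1 alone against the controls. Per transcript length, ERO1A stood at 5.31, 5.81 and 5.95 times ERO1B in FPKM in the controls and at 2.44, 2.46 and 2.42 times with FKA. ERO1A was thus the more abundant of the pair in all 6 libraries, by less in each FKA library; this pair too was chosen after its values were seen.

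P4HB, the founding disulfide isomerase, varied widely in both groups, at 536.4 to 788.9 CPM in the controls and 514.3 to 953.4 CPM with FKA (log2 fold change 0.18, SE 0.22, edgeR adjusted p = 0.509). PDIA3, the partner of calreticulin and calnexin for glycoproteins, differed by 0.08 (adjusted p = 0.587), and PDIA4, an isomerase found in complexes with BiP, by 0.00 (adjusted p = 0.996). ERP44, which returns the ERO1 oxidases and unassembled antibody subunits from the early Golgi, differed by −0.02 (adjusted p = 0.802). All 4 had overlapping groups.

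**Figure D3:**
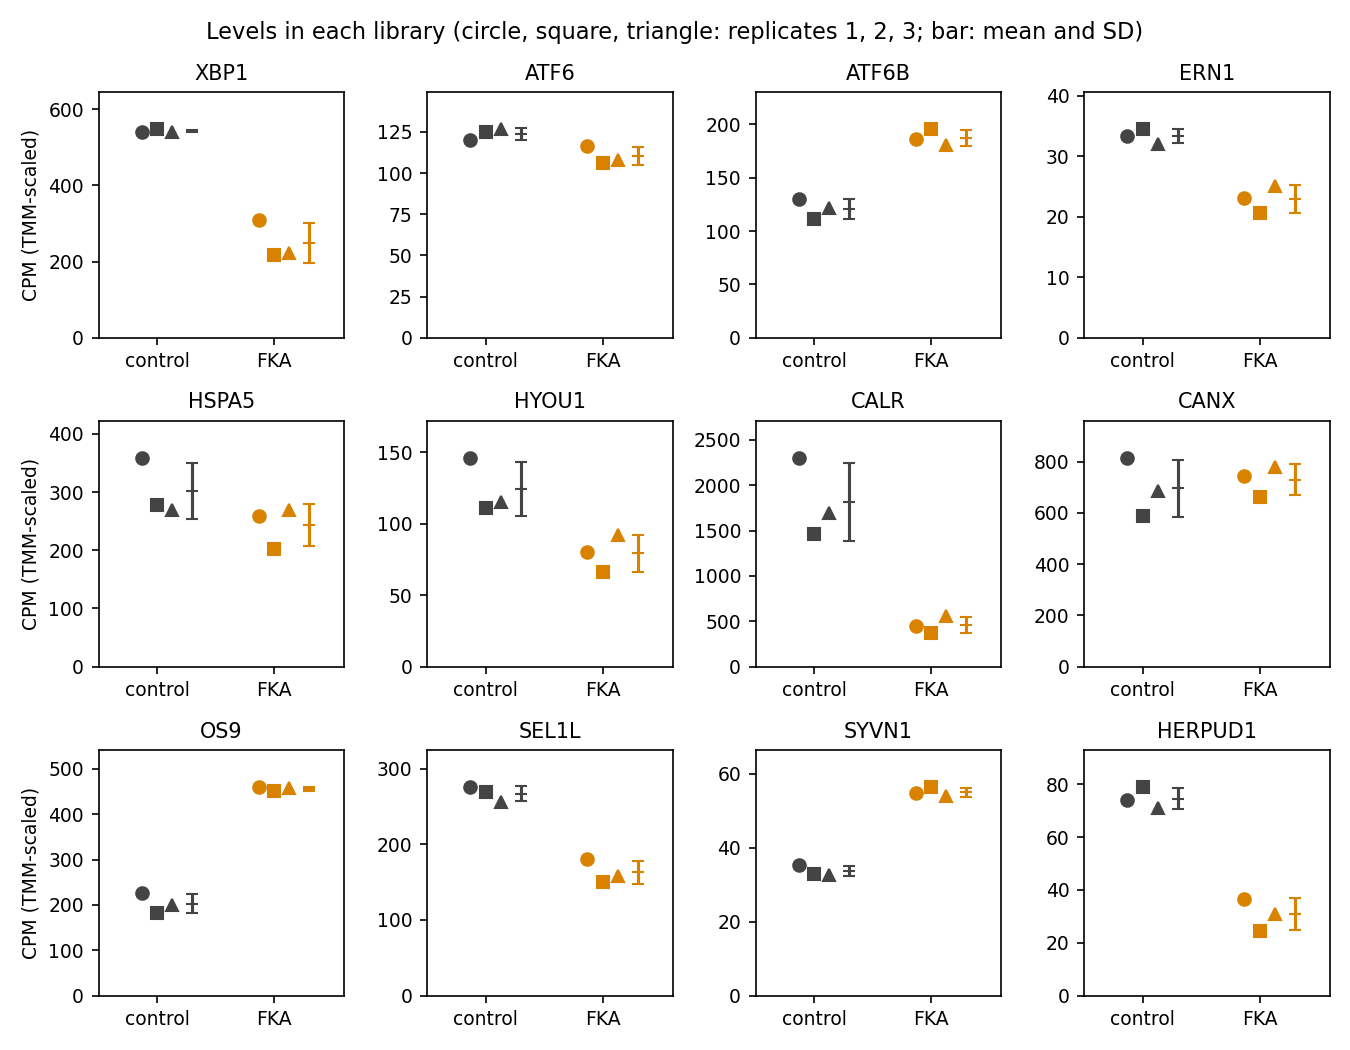
TMM-scaled CPM (y axis, from 0) of 12 of the genes in each library, with circle, square and triangle for replicates 1, 2 and 3 and a bar for the mean and SD of each group (n = 3). Control and FKA libraries lie apart in every panel but that of CANX, by the smallest margins in ATF6 and HSPA5.

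Of the 12 genes of ER-associated degradation, with the translocon subunit SEC61B counted among them, HERPUD1, SEL1L, DERL3 and EDEM1 fell, SYVN1, OS9 and DERL2 rose, and 5 were not called. The median log2 fold change was 0.019. The SEL1L-HRD1 complex itself was split. SEL1L, its scaffold, read 275, 269.5 and 256 CPM in the controls and 180.3, 150.2 and 158.4 CPM with FKA, a log2 fold change of −0.71 (SE 0.0961, edgeR adjusted p = 0.000279). SYVN1, which encodes the ubiquitin ligase HRD1, read 35.23, 32.94 and 32.66 CPM in the controls and 54.67, 56.23 and 53.83 CPM with FKA, a log2 fold change of 0.71 (SE 0.0873, edgeR adjusted p = 0.00017). In both genes every FKA library lay outside the range of the controls. Per transcript length, SEL1L stood at 3.55, 3.72 and 3.57 times SYVN1 in FPKM in the controls and at 1.5, 1.21 and 1.34 times with FKA, a pair chosen after its values were seen. Exons of SYVN1 overlap those of FAU on the same strand and MRPL49 on the other. FAU had 8767 to 9734 counts in the controls and 7094 to 7915 with FKA.

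HERPUD1, a membrane protein that organises the complex and is a standard reporter of the response, read 74.07, 78.74 and 70.83 CPM in the controls and 36.71, 24.6 and 30.87 CPM with FKA. The controls lay close together and every FKA library was far below them, library 2 the lowest. The log2 fold change was −1.28 (SE 0.141, edgeR adjusted p = 9.66e-05). The HERPUD1 window is shown because it holds both an ERSE-II, a compact form of the element with ATTGG and CCACG 1 base apart, and a C/EBP-ATF response element, the composite site read by ATF4 and CHOP (RefSeq, GRCh38.p14, chr16:56931892-56932191, plus strand). The capitals mark the C/EBP-ATF match first, on the opposite strand, and then the ERSE-II.
HERPUD1: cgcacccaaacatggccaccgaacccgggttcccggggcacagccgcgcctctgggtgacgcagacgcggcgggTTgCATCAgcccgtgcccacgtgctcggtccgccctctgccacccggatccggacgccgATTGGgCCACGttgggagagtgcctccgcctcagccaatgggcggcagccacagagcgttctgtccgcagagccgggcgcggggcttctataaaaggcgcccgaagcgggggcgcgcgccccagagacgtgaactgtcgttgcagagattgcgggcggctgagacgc

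OS9 and EDEM1 act on the glycans of degradation substrates. OS9, a lectin that hands trimmed glycoproteins to SEL1L, had the largest rise of the 40 genes. It read 225.5, 182.4 and 200.7 CPM in the controls and 458.7, 450.2 and 458.1 CPM with FKA. All FKA libraries were more than double the control mean, at 456 ± 4.77 against 203 ± 21.6 CPM (SD, n = 3), a log2 fold change of 1.17 (SE 0.101, edgeR adjusted p = 2.86e-05). EDEM1, which helps trim mannose from misfolded glycoproteins, read 231.1, 233.8 and 248.6 CPM in the controls and 163.2, 126.6 and 136.3 CPM with FKA. FKA library 1 came nearest to the controls without reaching them, and the log2 fold change was −0.74 (SE 0.109, edgeR adjusted p = 0.000427). Its relative EDEM3 differed by 0.08 (adjusted p = 0.505), with 257 to 293.4 CPM in the controls and 266.3 to 311.6 CPM with FKA, and passed with library totals (0.0425).

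EDEM2, the remaining EDEM protein, had 5, 15 and 23 counts in the controls and 34, 18 and 19 with FKA, with overlapping groups and a log2 fold change of 0.76 (SE 0.523, edgeR adjusted p = 0.236). The readthrough gene MMP24-AS1-EDEM2, which shares its exons, had 56, 53 and 24 counts in the controls and 111, 133 and 116 with FKA. How the counting divided reads between the pair was not tested, so the level of EDEM2 is uncertain.

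The derlins, membrane proteins that thin the lipid bilayer for the export of substrates, each behaved differently. DERL1 differed by −0.04 (edgeR adjusted p = 0.671), at 102.6 to 105.6 CPM in the controls and 97.07 to 108.3 CPM with FKA. Exons of DERL1 overlap those of TBC1D31 on the opposite strand. TBC1D31 had 824 to 1260 counts in the controls and 361 to 434 with FKA, beside 3177 to 3778 counts of DERL1. DERL2 rose by 0.40 on the log2 scale (edgeR adjusted p = 0.00759), from 26.74 to 31.1 CPM to 36.91 to 38.24 CPM, and stood at 0.41 with FKA library 1 alone against the controls. Exons of DERL2 overlap those of MIS12 on the opposite strand. MIS12 had 1761 to 2259 counts in the controls and 1675 to 1931 with FKA, beside 831 to 1283 counts of DERL2. DERL3, the derlin of secretory cells, had 51, 39 and 42 counts in the controls and 1, 1 and 0 with FKA. Over the groups, 132 counts stood against 2, a ratio of 65 once scaled, with an exact 95% interval of 17.6 to 542 for counting error only (edgeR adjusted p = 6.94e-05). Exons of DERL3 overlap those of SMARCB1 on the opposite strand. SMARCB1 had 1958 to 2302 counts in the controls and 1270 to 1409 with FKA.

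SELENOS, a selenoprotein that recruits the p97 ATPase to the derlins, differed by −0.05 (edgeR adjusted p = 0.775), at 15.83 to 21.04 CPM in the controls and 15.6 to 19.74 CPM with FKA. SEC61B, a small subunit of the channel by which new proteins enter the ER, differed by 0.23 (edgeR adjusted p = 0.233), at 21.92 to 30.54 and 24.91 to 32.77 CPM. SEC61B passed without control 1 (0.0443) and with library totals (0.0489).

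The known elements of the response were then searched in the promoters of the set, on both strands. These elements are known from genes of the response, and the set was picked by symbol to hold such genes. A high share in the set is thus built into the choice, and the shares below are a description, with no test. A window was found for 37 of the 40 genes, and for 27305 genes in all. An ERSE (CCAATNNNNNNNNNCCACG) was present in at least 1 window of 8 of the 37 genes (21.6%), against 0.0916% of all genes, and an ERSE-II (ATTGGNCCACG) in 3 of them (8.11%), against 0.0696%. By construction each match to either element holds a CCAAT box, which on its own was present in 29 of the 37 genes (78.4%) and 39.7% of all genes. The matches are printed 5′ to 3′ on the strand they read, with the blocks in capitals, to show how the 9 bases between the blocks differ from gene to gene.
XBP1: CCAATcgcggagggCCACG
HSPA5: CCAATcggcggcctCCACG
HSP90B1, farther from the start: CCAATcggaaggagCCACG
HSP90B1, nearer the start: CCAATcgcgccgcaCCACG
CRELD2: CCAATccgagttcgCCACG
CALR: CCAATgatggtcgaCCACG
CANX: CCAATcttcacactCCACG
PDIA6: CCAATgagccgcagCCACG
ERO1B: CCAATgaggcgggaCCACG
HERPUD1, ERSE-II: ATTGGgCCACG
HYOU1, ERSE-II, present at 2 places: ATTGGaCCACG
SDF2L1, ERSE-II: ATTGGtCCACG

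Genes with such a match did not move as one. Of the 11 with an ERSE or ERSE-II, 5 fell (CALR, XBP1, PDIA6, HERPUD1 and HYOU1), 1 rose (ERO1B) and 5 were not called (HSPA5, HSP90B1, CANX, CRELD2 and SDF2L1), with log2 fold changes from −1.98 to 0.753 and a median of −0.443. Of the 26 with a window but neither element, 10 fell, 5 rose and 11 were not called, with a median of −0.0393. The called share of each group was near the 59.8% of all tested genes. Of all tested genes, 29.3% were higher and 30.5% lower, and no difference between the groups or from all genes was tested. The lectins CALR and CANX each hold an ERSE, and their log2 fold changes were −1.98 and 0.07. The calnexin relative CLGN, which also fell, held neither element in its window. The UPRE core TGACGTGG was found in HYOU1, where it overlaps an ERSE-II, and in DNAJC10 (5.41% of the 37, against 0.927% of all genes). The C/EBP-ATF element TGATGNAA was found in HERPUD1 alone of the 37 (2.7%, against 4.46%). A match is a description of these letters and shows no binding.

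**Figure D4:**
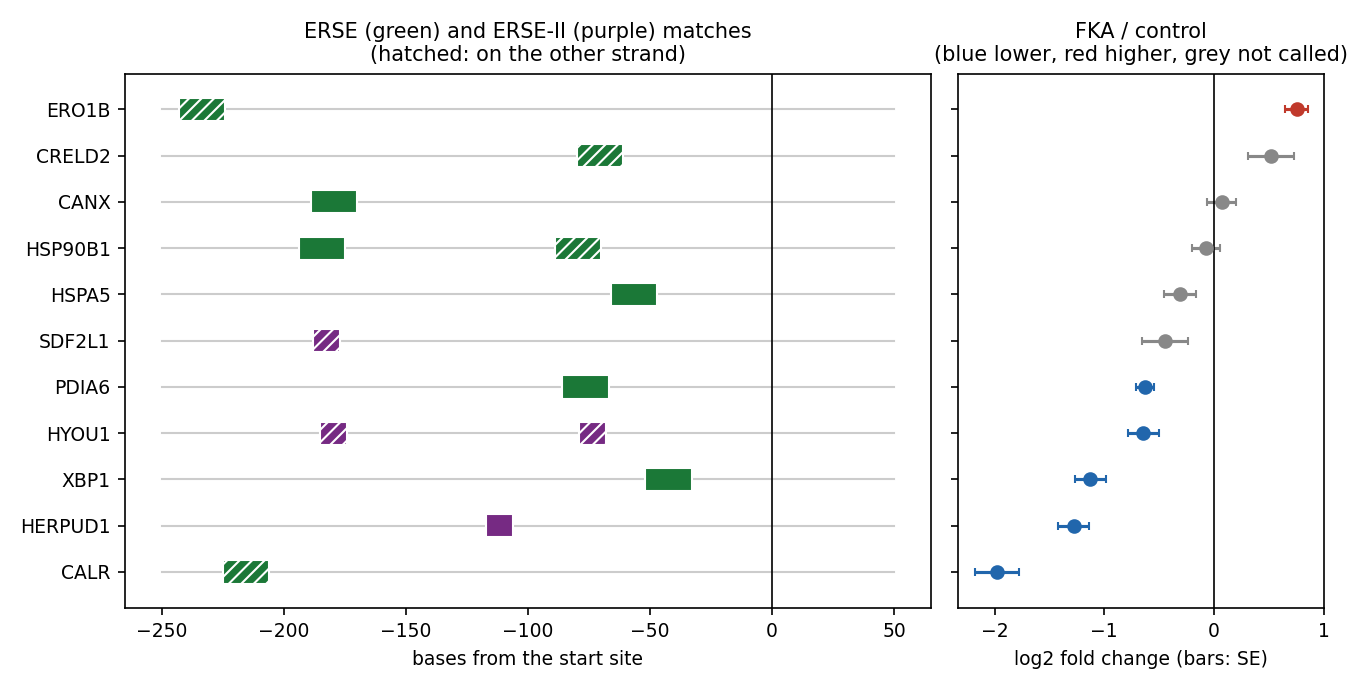
Left, place of each ERSE and ERSE-II match as bases from the RefSeq start site (x axis, upstream negative) for the 11 genes that hold one; right, the log2 fold change of the same genes with its standard error, coloured by call. Matches lie from 243 bases before the start (ERO1B) to 52 bases before it (XBP1), with CANX drawn for the start site that is farthest from its match, and the fold changes run from −1.98 (CALR) to 0.75 (ERO1B).

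The set was read beside 8 further lists of ER genes, which hold 165 tested genes. Of these, 51 were higher, 49 lower and 65 not called, with a median log2 fold change of −0.0216. Both shares stood close to those of all tested genes, of which 29.3% were higher and 30.5% lower. The counts of each list below are to be read beside these all-gene shares, and none was tested against them. The lists were chosen with earlier results of these data known. In the list of the PERK branch and the output of ATF4 and CHOP, 9 of 11 genes fell, none rose, and the median was −1.31. These are mRNA levels, and the activity of PERK was not measured. The largest falls were those of TRIB3 (−4.31), ATF3 (−2.20) and CHAC1 (−1.87), and CHAC1 was not called without control 2, control 3 or FKA library 2 (edgeR adjusted p = 0.0577, 0.0521 and 0.0724), while its log2 fold change was −3.12 without FKA library 1. A further list held genes of ATF6 and IRE1 processing and signalling, relatives of ATF6, and mRNAs known to be cut by IRE1. Of its 15 tested genes, 6 rose and 3 fell, with NUCB1 at 1.30, the ATF6 relative CREB3 at 1.21 and TRAF2 at −0.88.

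Of 36 other degradation genes, 16 rose and 9 fell. They included UBXN8 at −1.01 and RAD23B at −0.91. Of 23 genes of the translocon, the signal recognition particle and signal peptidase, 3 rose and 8 fell, with SRPRB, a subunit of the receptor of that particle, at −1.16, SEC61A2 at 0.71 and SEC11C at −0.58. SEC11C was not called without control 1, control 3, FKA library 1 or FKA library 2 (edgeR adjusted p = 0.102, 0.0892, 0.0632 and 0.0942). Of 16 genes of N-glycan transfer and glucose trimming, 3 rose and 5 fell, with the glucosidase MOGS at 0.84, OST4 at 0.64 and the catalytic subunit STT3A at −0.63.

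Of 21 other oxidoreductases and prolyl isomerases, 6 rose and 6 fell, with FKBP9 at 1.45, PPIC at 1.28 and GPX7 at −1.11. Of 21 J-proteins and calcium binders, 8 rose and 4 fell, with RCN3 at 1.80, CNPY4 at 1.16 and RCN1 at −1.15. Of 23 genes of export, retrieval and ER turnover, 9 rose and 5 fell, with CALCOCO1, an ER-phagy receptor, at 2.75, the KDEL receptor KDELR1 at 0.85 and SEC24C at 0.72. With FKA library 1 alone against the controls, the log2 fold changes of GPX7, RCN3 and CNPY4 were −0.77, 1.5 and 0.76.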

How the data were processed

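RNA of 6 libraries of 1 cell line was sequenced. The authors deposited whole-number read counts for each gene and, in another table, FPKM (length-scaled levels). The builds named in the submitters' processing notes, GRCm38 and mm10, are of the mouse, while both tables carry human gene symbols. No label names an aligner, counter, annotation or strand setting, and these are therefore not given in the sources used here. For each gene, the length implied by count, FPKM and library total was the same in all libraries to within a relative 6.9e-07, so FPKM carries no scaling beyond the total.

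Columns were assigned by title (0 columns had no sample). The members and lists were chosen with earlier results of these data known. Genes were filtered with filterByExpr (13531 kept, holding at least 99.94% of counts), scaled by TMM and tested with edgeR 4.0.16 (R 4.3.3) in glmQLFit and glmQLFTest without a batch term, with Benjamini-Hochberg adjustment and a threshold of 0.05. The biological coefficient of variation was 15.4%. No p-value was adjusted over a list alone. Given in full are XBP1, ATF6, ATF6B, ERN1, HSPA5 and each called member with an absolute log2 fold change of at least 0.58. Of each other list, the called genes with the largest change are named, 3 at most, each averaging 50 counts or more in its higher group. The rule's part on protein ends was not used here, and 1 gene that the rule names is not reported here.

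Alternatives were a batch term, DESeq2 1.42.0, other scalings and filters, limma 3.58.1 on log2(FPKM + 1) or log2(FPKM + 0.1), and each library left out. Leaving out FKA libraries 2 and 3 together was added after seeing the data, and assumes that the lone FKA library varies like the controls. Replicate numbers equal the batch labels, which pairs 1 control with 1 FKA library in each batch. The deviations of the paired libraries from their group means correlated at 0.054, 0.34 and −0.077. Promoter windows were read from RefSeq (GRCh38.p14) by symbol, and PDIA3, DERL1 and DERL3 had none. Exon overlaps came from GENCODE v29.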

Additional observations from a re-analysis of the deposited data

How the results depend on the processing

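With the replicate block (a batch term, paired by batch), 6 of the 40 genes were higher and 16 lower, as without it, and no gene of the set changed its call. Higher genes numbered 10 with library totals and 10 in each of the 3 limma fits on FPKM. With 1 library left out, 5 to 7 were higher and 14 to 16 lower. Without FKA libraries 2 and 3, which leaves 1 FKA library assumed to vary like the controls, all genes gave 2020 higher and 2599 lower, and the other ER genes 32 and 20. The other ER genes that fell numbered 31 with library totals and 32, 32 and 29 with limma on log2(FPKM + 1), on log2(FPKM + 0.1) and on log2(FPKM + 1) at a mean FPKM of at least 1. With 1 library left out, 43 to 52 of them rose and 38 to 50 fell. No called gene of the set reversed. Uncalled genes that changed sign are given as log2 fold changes, in the order library totals and the same 3 limma fits where 4 values stand. HSP90B1 read 0.093, 0.0964, 0.0969 and 0.0964, and −0.169 to 0.0473 with 1 library left out. DNAJB11 read 0.159, 0.154, 0.158 and 0.154, 0.0665 with upper-quartile factors, 0.0224 with a filter of 1 CPM, 0.0562 without FKA libraries 2 and 3, and −0.0592 to 0.0479 with 1 left out. ERP44 read 0.133, 0.13, 0.135 and 0.13, and 0.0443 with upper-quartile factors. DERL1 read 0.117, 0.112, 0.115 and 0.112, 0.026 with upper-quartile factors and 0.0411 without FKA libraries 2 and 3. SELENOS read 0.103, 0.0961, 0.106 and 0.0961, 0.0124 with upper-quartile factors, 0.0222 without FKA libraries 2 and 3, and −0.176 to 0.0476 with 1 left out. PDIA4 read −0.0034 with DESeq2, −0.0032 with its size factors in edgeR, −0.0386 with no filter, −0.0114 without FKA libraries 2 and 3, and −0.0888 to 0.152 with 1 left out. With 1 left out, CANX ran from −0.047 to 0.188, PDIA3 from −0.0204 to 0.17 and P4HB from −0.0593 to 0.379. Library totals raised the median of all genes by 0.157 over TMM, and FPKM carries no scaling beyond the total. Where 4 values stand, they therefore share that scaling and are not separate checks. Beyond this, the cause of these changes was not tested, except that fewer samples enter the fits that leave libraries out. Depth limits CLGN, DERL3 and EDEM2, whose levels rest on few counts.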
